A study of Homo sapiens with 6 samples.

Results

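ASNS, GPT2, SESN2, DDIT4, STC2 and VLDLR are effector genes of ATF4, the transcription factor of the amino acid and endoplasmic reticulum stress responses. They were chosen by name, with earlier results of these data known. All 6 were found in the gene expression table, among 11658 genes, and they had 16 of the 30432 entries of the transcript table. MKN45, an established line of human gastric cancer grown in serum-supplemented DMEM, was the source of the sequenced total RNA. For 3 libraries the cells had received a short hairpin RNA (shRNA) directed at tcons_00001221, here the target shRNA, and for the other 3 a control shRNA, labelled shRNA-NC. The study is a single line with a single named target, and neither the number of hairpin sequences nor the time after transfection was given in the sources used here. Whether the 3 libraries of a group came from separate cultures was not given either, so every p-value rests on library spread that may be purely technical.

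Expression was given as FPKM, sequenced fragments scaled to transcript length and to the size of the library, summing to between 186226 and 192101 per library over all genes. Read depth was unknown, so no counting error can be set beside a value. No row of either table carried the identifier of the targeted transcript (0 rows), so the size of the knockdown was not analysed here. Of 27 gastric and intestinal epithelial markers, 13 were in the gene table. None of the 11 tested passed the limma test described below, which 0.749% of all tested genes passed. At an unadjusted limma p under 0.05 there were 3 of the 11, beside 16.1% of all tested genes. The 3 of smallest p were ELF3, with means of 27.5 and 23.3 FPKM (limma adjusted p = 0.079), CLDN4, with 10.5 and 3.60 FPKM (0.295), and KRT7, with 175 and 163 FPKM (0.298). CLDN4 was at 10.6 FPKM in target replicate 1, within the range of the controls, and at 0.059 and 0.175 FPKM in target replicates 2 and 3. Of the 11 markers 4 had a higher target mean on the log2 scale, GATA6 by the most (0.16). Named after their values were seen, KRT18 had means of 60.9 and 57.0 FPKM and EPCAM of 7.26 and 6.84 FPKM, while CDH1, KRT19, KRT20 and CLDN18 were not among the genes analysed here. Of 11 leukocyte markers, 2 were in the table, with summed levels of 14.1 to 16.4 FPKM in the control libraries and 11.1 to 14.2 FPKM in the target libraries. Of 7 endothelial markers, 1 was in the table, at 0.612 to 0.835 FPKM in the control and 0.569 to 0.763 FPKM in the target libraries. Of 16 fibroblast markers, 9 were in the table and 8 tested, with no call (3 at an unadjusted limma p under 0.05) and summed levels of 274 to 280.2 FPKM in the control and 247 to 268 FPKM in the target libraries, of which VIM, an intermediate filament that many carcinoma lines also express, gave means of 203 and 187 FPKM. The 3 fibroblast markers of smallest p were FAP, with means of 1.27 and 0.790 FPKM (limma adjusted p = 0.238), FN1, with 25.5 and 22.6 FPKM (0.256), and DCN, with 1.46 and 1.07 FPKM (0.289). COL6A1 had means of 25.9 and 25.3 FPKM and LUM of 12.6 and 11.7 FPKM, while 7 fibroblast markers were not among the genes analysed here. What part any of these marker differences had in the members' values was not tested. In bulk RNA, fewer cells of a type and less RNA per cell cannot be told apart.

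When amino acids run short or unfolded proteins build up, kinases phosphorylate the initiation factor eIF2alpha, general translation falls, and the ATF4 messenger is translated more. ATF4, usually paired with a C/EBP protein, then binds composite elements in its target genes. Its effectors replace amino acids (ASNS, GPT2), restrain the growth kinase complex mTORC1 (SESN2, DDIT4), and include secreted and surface glycoproteins (STC2, VLDLR).

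Upstream sequence is shown for the 2 members that passed the test and for the most abundant member, because elements that control a gene can lie there. The windows reach from 250 bases before to 50 bases after the annotated start and are from RefSeq on GRCh38.p14, which held 6 windows for 5 of the members. They were searched on both strands for TGATGNAA, the core of the C/EBP-ATF element, for GTTACA, the neighbouring nutrient-sensing element of ASNS, and for ACGTG, the core of the hypoxia response element. The matches, in capitals, did not overlap one another. The windows are chr7:97872359-97872658 on the minus strand for ASNS, chr1:28259268-28259567 on the plus strand for SESN2, and chr10:72273674-72273973 on the plus strand for DDIT4, each written 5′ to 3′ along its gene.
ASNS: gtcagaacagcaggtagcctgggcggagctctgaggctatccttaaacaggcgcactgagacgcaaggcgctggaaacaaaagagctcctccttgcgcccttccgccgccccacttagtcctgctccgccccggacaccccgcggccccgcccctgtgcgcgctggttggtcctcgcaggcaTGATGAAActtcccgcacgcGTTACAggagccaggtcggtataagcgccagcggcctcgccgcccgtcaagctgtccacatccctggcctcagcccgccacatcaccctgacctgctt
SESN2: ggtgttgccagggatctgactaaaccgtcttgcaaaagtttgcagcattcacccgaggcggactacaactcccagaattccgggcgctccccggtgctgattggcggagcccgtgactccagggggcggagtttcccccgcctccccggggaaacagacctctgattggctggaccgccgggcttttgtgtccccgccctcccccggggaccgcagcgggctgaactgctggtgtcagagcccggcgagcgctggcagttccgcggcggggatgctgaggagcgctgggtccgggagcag
DDIT4: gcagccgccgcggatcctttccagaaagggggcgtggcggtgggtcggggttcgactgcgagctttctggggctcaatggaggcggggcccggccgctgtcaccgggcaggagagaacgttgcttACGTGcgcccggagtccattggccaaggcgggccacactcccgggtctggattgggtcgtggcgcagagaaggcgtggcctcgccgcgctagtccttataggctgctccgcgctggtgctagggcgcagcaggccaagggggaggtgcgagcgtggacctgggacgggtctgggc
The ASNS window held TGATGAAA with its first base 68 bases upstream of the start and GTTACA 48 bases upstream, the arrangement known as nutrient-sensing response elements 1 and 2 of this gene. The DDIT4 window held ACGTG 125 bases upstream, and none of the 3 motifs was found in the windows of SESN2, STC2, VLDLR or the second ASNS start. Among all 35116 RefSeq windows, 3.62% held TGATGNAA, 6.66% held GTTACA and 21.4% held ACGTG. Of 29 other ATF4 program genes matched by symbol to a window, described below as a list, 11 held TGATGNAA in at least 1 window. These are counts of genes, while the shares above are of windows. Of the 13 list genes that passed the test below, 4 were matched to a window, and 1 of these, CEBPG, held TGATGNAA. A match is a run of letters in the window and no evidence of binding.

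All 6 members were higher in every target library than in every control library, and 2 of them, ASNS and SESN2, passed the test (limma on log2(FPKM + 1), adjusted p under 0.05 by Benjamini-Hochberg over 10675 tested genes). Both of these rose. The same complete separation in the upward direction was found in 16.6% of tested genes, 0.534% of tested genes passed as higher, and 0.749% passed in either direction. The members were chosen with earlier results known, so these shares do not make an unbiased comparison. The median log2 change of the 6 members was 0.22, beside 0.03 over all tested genes. All 6 members passed the filter on low values.

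**Figure D1:**
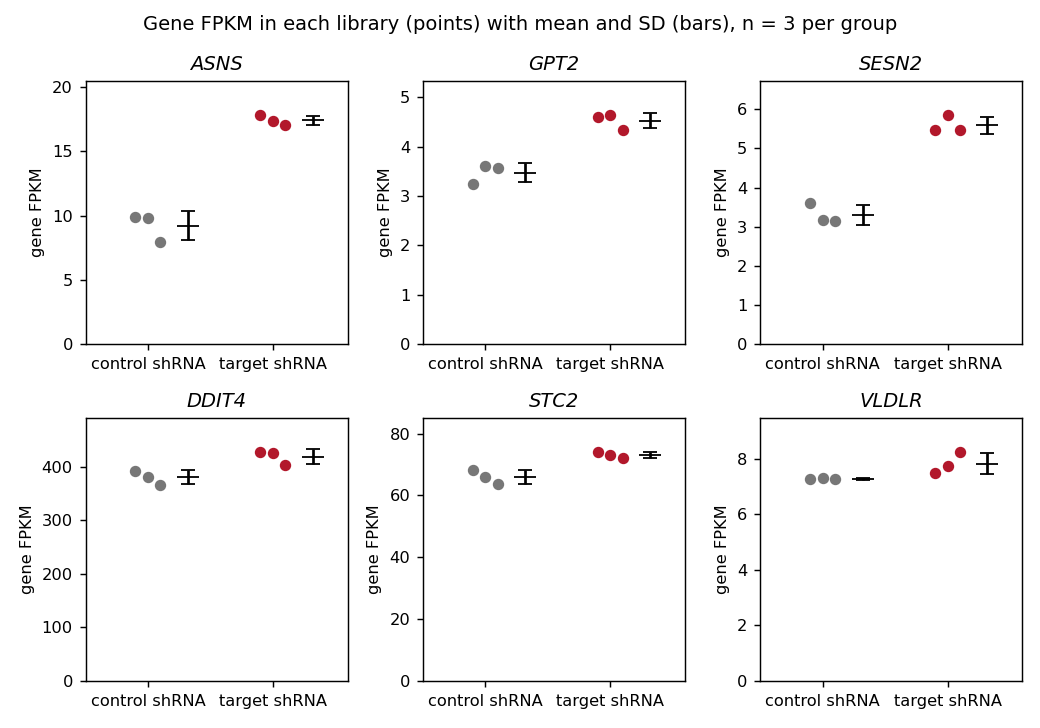
Gene FPKM (linear axes starting at 0, each gene with its own scale) in the 3 control and 3 target libraries. Points are libraries, and the bars beside them give the mean and SD. ASNS stood at 7.94 to 9.89 FPKM in the control and 17.1 to 17.8 FPKM in the target libraries, whereas the 2 groups of VLDLR were separated by less, with 7.33 FPKM as the highest control and 7.50 FPKM as the lowest target value.

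ASNS encodes asparagine synthetase, which makes asparagine from aspartate with glutamine as the nitrogen donor. The gene (ENSG00000070669.16_2, chr7:97481430-97501854 in GRCh37, minus strand) was at 9.89, 9.85 and 7.94 FPKM in control replicates 1, 2 and 3 and at 17.8, 17.4 and 17.1 FPKM in target replicates 1, 2 and 3. Every target library lay far above every control library, and the spread was wider in the controls. The means were 9.23 ± 1.11 and 17.4 ± 0.362 FPKM (SD, n = 3), a ratio of 1.89. On the log2(FPKM + 1) scale the gene rose by 0.85 (SE 0.08, 95% interval 0.65 to 1.06, limma adjusted p = 0.016), and 25 tested genes had a larger increase. The call was lost without control replicate 2 (adjusted p = 0.050, just above the threshold), target replicate 1 (0.074), target replicate 2 (0.083) or target replicate 3 (0.080), and kept without control replicate 1 (0.035) or 3 (0.012), with a log2 change between 0.76 and 0.90 in those fits. In RefSeq the locus also holds CZ1P-ASNS, a noncoding RNA, and 2 pseudogenes, SNRPCP9 and RPS3AP29, and how reads were divided among overlapping genes was not given in the sources used here.

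GPT2 encodes the mitochondrial alanine aminotransferase, which exchanges the amino group between glutamate and alanine. The gene (ENSG00000166123.13_2, chr16:46918290-46965209, plus strand) was at 3.25, 3.60 and 3.57 FPKM in the controls and at 4.60, 4.64 and 4.35 FPKM in the target libraries. The groups did not overlap, but the gap was smaller than for ASNS. The means of 3.47 ± 0.194 and 4.53 ± 0.156 FPKM (SD, n = 3) gave a ratio of 1.30 and a log2 difference of 0.31 (SE 0.06, 95% interval 0.17 to 0.44), which did not pass the test (limma adjusted p = 0.094).

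SESN2 encodes sestrin 2, a leucine-binding protein that holds mTORC1 inactive through the GATOR complexes when leucine is scarce. Its gene (ENSG00000130766.4_1, chr1:28586038-28609002, plus strand) was at 3.60, 3.18 and 3.14 FPKM in the controls and at 5.47, 5.84 and 5.46 FPKM in the target libraries. The target libraries all lay above the controls, with a similar spread in both groups. Means were 3.31 ± 0.256 and 5.59 ± 0.217 FPKM (SD, n = 3), a ratio of 1.69. The gene rose by 0.62 on the log2 scale (SE 0.06, 95% interval 0.46 to 0.77, limma adjusted p = 0.018), and 65 tested genes had a larger increase. The call was kept without control replicate 1 (adjusted p = 0.031) and lost without control replicate 2 (0.072), control replicate 3 (0.072), target replicate 1 (0.074), target replicate 2 (0.094) or target replicate 3 (0.080), while the log2 change stayed at 0.59 or more.

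DDIT4, also called REDD1, encodes an mTORC1 inhibitor that acts through the TSC complex and is induced by hypoxia, glucocorticoids and energy stress as well as by ATF4. The gene (ENSG00000168209.4_1, chr10:74033678-74035794, plus strand) was at 393, 381 and 367 FPKM in the controls and at 428, 427 and 403 FPKM in the target libraries. It was among the most abundant messengers of the line, above 99.6% of tested genes. The groups did not overlap, yet the lowest target and the highest control library were close. Means of 380.4 ± 13.0 and 419 ± 13.9 FPKM (SD, n = 3) gave a ratio of 1.10 and a log2 difference of 0.14 (SE 0.04, 95% interval 0.04 to 0.24, limma adjusted p = 0.213). With quantile normalization, which forces all libraries to one distribution, the difference was 0.22 and passed (adjusted p = 0.033).

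STC2 encodes stanniocalcin 2, a secreted glycoprotein that inhibits the protease PAPP-A. The gene (ENSG00000113739.10_1, chr5:172741716-172756506, minus strand) was at 68.4, 65.9 and 63.9 FPKM in the controls and at 74.1, 73.0 and 72.1 FPKM in the target libraries. All target values were above all control values by a small margin. Means were 66.0 ± 2.27 and 73.0 ± 1.00 FPKM (SD, n = 3), a ratio of 1.11, with a log2 difference of 0.14 (SE 0.04, 95% interval 0.05 to 0.24) that did not pass the test (limma adjusted p = 0.186).

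VLDLR encodes the very low density lipoprotein receptor, which takes up triglyceride-rich lipoproteins and also serves as a receptor for reelin. The gene (ENSG00000147852.15_1, chr9:2621834-2660053, plus strand) was at 7.26, 7.33 and 7.29 FPKM in the controls and at 7.50, 7.74 and 8.25 FPKM in the target libraries. The controls were nearly identical and the target libraries spread more widely just above them. Means of 7.30 ± 0.036 and 7.83 ± 0.384 FPKM (SD, n = 3) gave a ratio of 1.07 and a log2 difference of 0.09 (SE 0.05), and its 95% interval, from -0.03 to 0.21, included no change (limma adjusted p = 0.452). RefSeq places a noncoding RNA antisense to the gene, VLDLR-AS1, at this locus, and whether the counting used strand was not given in the sources used here.

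Set side by side, the intervals of ASNS (0.65 to 1.06) and SESN2 (0.46 to 0.77) overlapped one another and lay above those of GPT2 (0.17 to 0.44), DDIT4, STC2 and VLDLR. The differences between genes were not tested. By level, which FPKM scales to length, the order in the controls was DDIT4, STC2, ASNS, VLDLR, GPT2 and SESN2, and only the values of GPT2 and SESN2 overlapped. In the target libraries the order was the same except that SESN2, at 5.46 to 5.84 FPKM, stood above GPT2, at 4.35 to 4.64 FPKM, without overlap. Of the 2 members that passed the test, ASNS was above 74.4% and SESN2 above 38.4% of tested genes in level.

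At transcript level 3 of the members, GPT2, SESN2 and DDIT4, had a single listed transcript, while ASNS had 7 and VLDLR and STC2 had 3 each. Of the 16 transcripts 11 passed the filter on low values and none was called (0 of 11, limma adjusted p under 0.05 over 20890 transcripts), beside 0.287% of all tested transcripts called in either direction and 0.148% called as higher. In 5 of the 11 every target library was above every control library, beside 9.12% of tested transcripts. These were ASNS-001, GPT2-001, SESN2-001, DDIT4-001 and STC2-001, and the same 5 had an unadjusted limma p under 0.05, as 7.40% of all tested transcripts did.

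ASNS-001, which holds 13 exons and the full coding sequence of 1683 bases, was at 8.82, 9.24 and 6.19 FPKM in the controls and at 15.9, 26.3 and 27.1 FPKM in the target libraries. All target values were higher, with target replicate 1 well below the other two. Means were 8.08 ± 1.65 and 23.1 ± 6.28 FPKM (SD, n = 3), and the log2 difference of 1.39 (SE 0.25) did not pass over all transcripts (limma adjusted p = 0.266). ASNS-005, with a coding sequence of 1620 bases contained in that of ASNS-001, was at 6.55, 6.82 and 9.03 FPKM in the controls and at 17.5, 5.47 and 3.95 FPKM in the target libraries. Its groups overlapped, and target replicate 1, the lowest for ASNS-001, was here the highest. ASNS-006 was at 6.02, 0 and 2.46 FPKM in the controls and at 4.89, 7.11 and 6.66 FPKM in the target libraries, and control replicate 2 was the library listed at 0. ASNS-017 ranged from 0.140 to 5.11 FPKM in the controls and from 1.08 to 7.58 FPKM in the target libraries, and its groups also overlapped. The other 3 ASNS transcripts had means of 0.496 to 0.743 FPKM.

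The share of ASNS-001 in the summed ASNS transcripts was 34.4%, 34.0% and 33.4% in the controls and 32.6%, 63.4% and 68.6% in the target libraries. It was even among the controls and target replicate 1 and higher only in target replicates 2 and 3. The means were 33.9 ± 0.518% and 54.9 ± 19.5%, a difference of 20.9 percentage points (2-sided exact permutation p = 0.4, 0.6 after Benjamini-Hochberg over 3 genes). The smallest p possible was 0.1, above the threshold, so this test could not call a share difference of any size. The sum of the ASNS transcripts itself was 25.6, 27.2 and 18.6 FPKM in the controls and 48.6, 41.5 and 39.5 FPKM in the target libraries. The groups of sums did not overlap, so the listed transcripts together were higher in each target library.

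**Figure D2:**
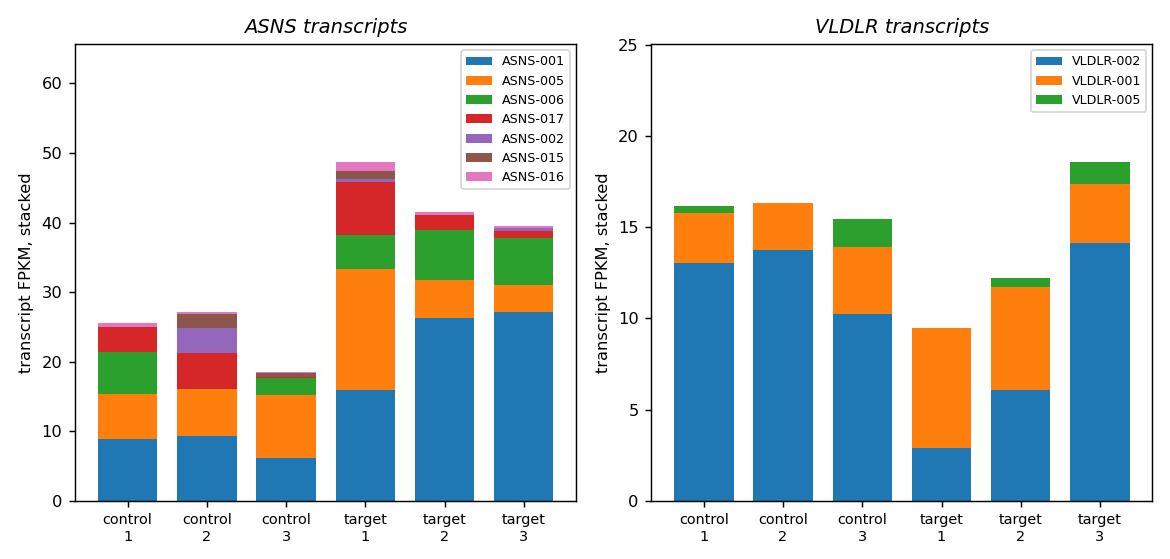
Transcript FPKM, stacked by transcript, in each of the 6 libraries for ASNS and VLDLR (linear axes from 0). The ASNS stack was between 18.6 and 27.2 FPKM in the controls and between 39.5 and 48.6 FPKM in the target libraries, with ASNS-001 the largest piece in target replicates 2 and 3 and ASNS-005 in target replicate 1. For VLDLR the VLDLR-002 piece was 10.3 to 13.8 FPKM in the controls, 2.88 FPKM in target replicate 1 and 14.1 FPKM in target replicate 3.

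The coding sequences of the 2 main VLDLR transcripts, of 2619 bases in VLDLR-001 and 2535 bases in VLDLR-002, differ by 1 cassette exon, while the transcripts, of 9163 and 3240 bases, also differ at both ends. Exon 16 of the 19 exons of VLDLR-001, of 84 bases and 28 codons, lies at chr9:2651415-2651498 on the plus strand of GRCh38, is absent from VLDLR-002, and encodes the part of the receptor that carries O-linked sugars. It is shown because it is the coding difference between the 2 receptor forms, although most of the bases by which the transcripts differ lie outside it.
VLDLR exon 16: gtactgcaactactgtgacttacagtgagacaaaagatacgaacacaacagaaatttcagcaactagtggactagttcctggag
VLDLR-002, the form without it, was at 13.0, 13.8 and 10.3 FPKM in the controls and at 2.88, 6.10 and 14.1 FPKM in the target libraries. VLDLR-001, the form with it, was at 2.76, 2.56 and 3.68 FPKM in the controls and at 6.59, 5.63 and 3.28 FPKM in the target libraries. In both cases target replicate 3 was like the controls and target replicates 1 and 2 were not, so the groups overlapped. Log2 differences were -0.83 (SE 0.50, limma adjusted p = 0.772) and 0.60 (SE 0.26, 0.692). For VLDLR-002 the difference was -0.36 without target replicate 1 and -1.34 without target replicate 3. The share of VLDLR-002 was 80.5%, 84.3% and 66.5% in the controls and 30.4%, 49.98% and 76.1% in the target libraries. Target replicates 1 and 2 lay below every control, while target replicate 3 lay within the control range. The means were 77.1 ± 9.38% and 52.2 ± 22.9% (2-sided exact permutation p = 0.2, 0.6 after Benjamini-Hochberg over 3 genes). The smallest p possible was 0.1, above the threshold, so this test could not call a share difference of any size.

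STC2-001 carried 91.7 ± 0.961% of the STC2 transcripts in the controls and 91.9 ± 0.722% in the target libraries (SD, n = 3; 2-sided exact permutation p = 0.8, 0.8 adjusted), a difference of 0.18 percentage points. It was at 77.3, 74.3 and 72.2 FPKM in the controls and at 83.6, 82.6 and 81.3 FPKM in the target libraries, above in each library as at gene level (limma adjusted p = 0.604). STC2-006 was at 6.19, 6.77 and 5.11 FPKM in the controls and at 6.85, 6.19 and 7.04 FPKM in the target libraries, with overlap. GPT2-001 was at 4.35 to 4.84 FPKM in the controls and 5.64 to 5.96 FPKM in the target libraries, and DDIT4-001 at 428 to 458 and 471 to 499 FPKM, neither passing (limma adjusted p = 0.604 and 0.601). SESN2-001 had the values of its gene, and its log2 difference of 0.62 had an adjusted p of 0.234 over the larger transcript table.

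The gene value was not the sum of the listed transcripts. Gene FPKM was 0.362 to 0.432 of the transcript sum for ASNS, 0.444 to 0.792 for VLDLR, 0.744 to 0.798 for GPT2, 0.805 to 0.820 for STC2, 0.856 to 0.858 for DDIT4 and equal for SESN2. When the transcripts of each locus were summed and fitted instead, 0 of the 6 members were called, beside 0.206% of 10678 loci, and 5 of the 6 had an unadjusted limma p under 0.05, as 11.4% of all loci did. ASNS kept its size with a wider error (log2 difference 0.85, SE 0.16, limma adjusted p = 0.185), as did SESN2 (0.62, adjusted p = 0.068). VLDLR turned to -0.29 (SE 0.22, adjusted p = 0.652), with sums of 16.2, 16.3 and 15.4 FPKM in the controls and 9.47, 12.2 and 18.6 FPKM in the target libraries, so even the direction of the VLDLR difference depended on which deposited value was taken.

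**Figure D3:**
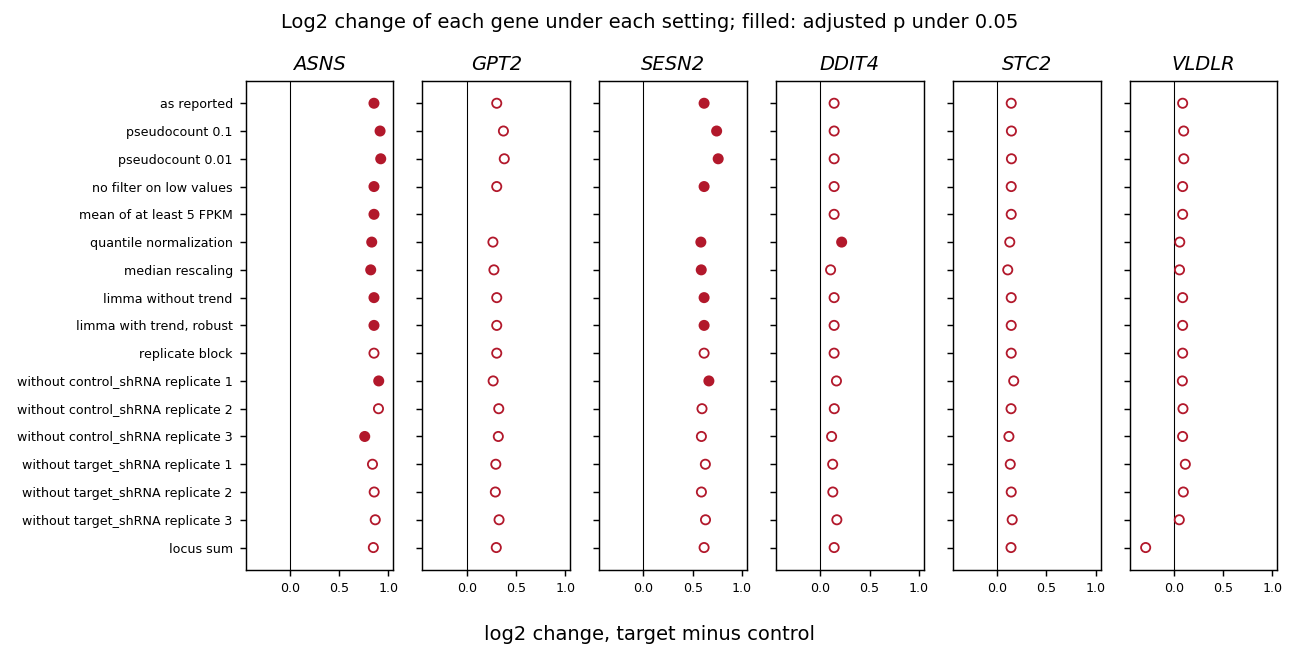
Log2 change (target minus control) of each member under each processing setting, with filled points for adjusted p under 0.05 and open points otherwise. ASNS and SESN2 stayed between 0.58 and 0.92 in every fit that held them, while VLDLR was -0.29 with summed transcripts.

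Other genes of the ATF4 program are described from a list of 50, none of them a member, of which 46 were tested. Of these 13 rose, none fell and 33 did not pass, with a median log2 change of 0.30 beside 0.03 over all tested genes and 0.749% of genes called. In 34 of the 46 every target library was above every control library, beside 16.6% of all tested genes. This list too was chosen with earlier results of these data known, so the comparison is not unbiased. By function, grouped after the values were seen, 6 of 11 aminoacyl-tRNA ligases and 2 of 6 serine and one-carbon enzymes passed as higher. So did 3 of 8 transcription factors and cofactors and 1 of 8 amino acid transporters. The median log2 changes of these groups were 0.34, 0.44, 0.49 and 0.19, so the transporters too had a median above that of all tested genes. The strongest by adjusted p was PSAT1, the aminotransferase of serine synthesis, from a mean of 38.8 to 67.5 FPKM (log2 change 0.78, limma adjusted p = 0.0019). The count fell from 13 to between 3 and 6 genes past the threshold whichever of the 6 libraries was left out. It was 3 without target replicate 2 or target replicate 3 and 6 without target replicate 1 (1 of them lower in the target libraries). Without any one control it was 5.

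Among the ligases, which charge tRNAs with amino acids, AARS rose from 54.4 to 76.1 FPKM (adjusted p = 0.005), MARS from 5.27 to 8.48 FPKM (0.012), GARS from 57.5 to 72.9 FPKM (0.021), CARS from 11.5 to 15.9 FPKM (0.024), IARS from 23.0 to 30.1 FPKM (0.025) and EPRS from 68.1 to 84.2 FPKM (0.047). XPOT, the export receptor for tRNA, rose from 30.8 to 40.6 FPKM (adjusted p = 0.022). ALDH1L2, a mitochondrial folate enzyme, rose from 6.28 to 9.81 FPKM (adjusted p = 0.012), and SLC7A11, the cystine-glutamate exchanger, from 3.02 to 5.21 FPKM (0.019). Of the factors, CEBPG, a partner of ATF4, rose from 6.73 to 10.7 FPKM (adjusted p = 0.008), DDIT3, the stress factor CHOP, from 5.98 to 9.59 FPKM (0.021), and NUPR1, a stress-induced chromatin protein, from 0.795 to 1.63 FPKM (0.033). NUPR1 was under 1 FPKM in all controls and passed the filter only through the target libraries, where it is high; without it 12 of 45 list genes rose, with a median of 0.30. DDIT3 overlaps MARS on the opposite strand, and without strand their reads cannot be told apart in the overlap. PSAT1, AARS and CEBPG stayed past the threshold without any one library (adjusted p up to 0.047). MARS lost its call without target replicate 1, 2 or 3 (adjusted p 0.060 to 0.068), ALDH1L2 without control replicate 2 or target replicate 2 or 3 (0.050 to 0.067), and SLC7A11 without any library but control replicate 2 (0.050 to 0.098). GARS, CARS, IARS, EPRS, XPOT, DDIT3 and NUPR1 lost theirs whichever of the 6 libraries was left out (0.050 to 0.148). With all libraries kept, EPRS also lost its call with no filter on low values (0.050), quantile normalization (0.083), median rescaling (0.059) and limma without trend (0.081), and NUPR1 with quantile normalization (0.054).

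ATF4 itself was at 109, 111 and 112 FPKM in the controls and at 129.9, 127 and 128 FPKM in the target libraries, a separation of the groups that did not pass (log2 difference 0.21, limma adjusted p = 0.061). Its protein is controlled mainly by translation, which these libraries do not measure. TRIB3, a pseudokinase that binds ATF4, had means of 25.5 ± 1.34 and 46.1 ± 15.7 FPKM (SD, n = 3; limma adjusted p = 0.243), with target replicate 1 at 28.1 FPKM and the other 2 at 56.7 and 53.5 FPKM. Without target replicate 1 its adjusted p was 0.009. ATF3 was lower in every target library, at 3.95 ± 0.359 against 2.18 ± 0.370 FPKM (adjusted p = 0.064), and CEBPB had overlapping groups with means of 184 and 179 FPKM. Among these genes and the members, log2 changes ran from -0.64 for ATF3 to 0.85 for ASNS, with VLDLR toward the lower end.

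**Figure D4:**
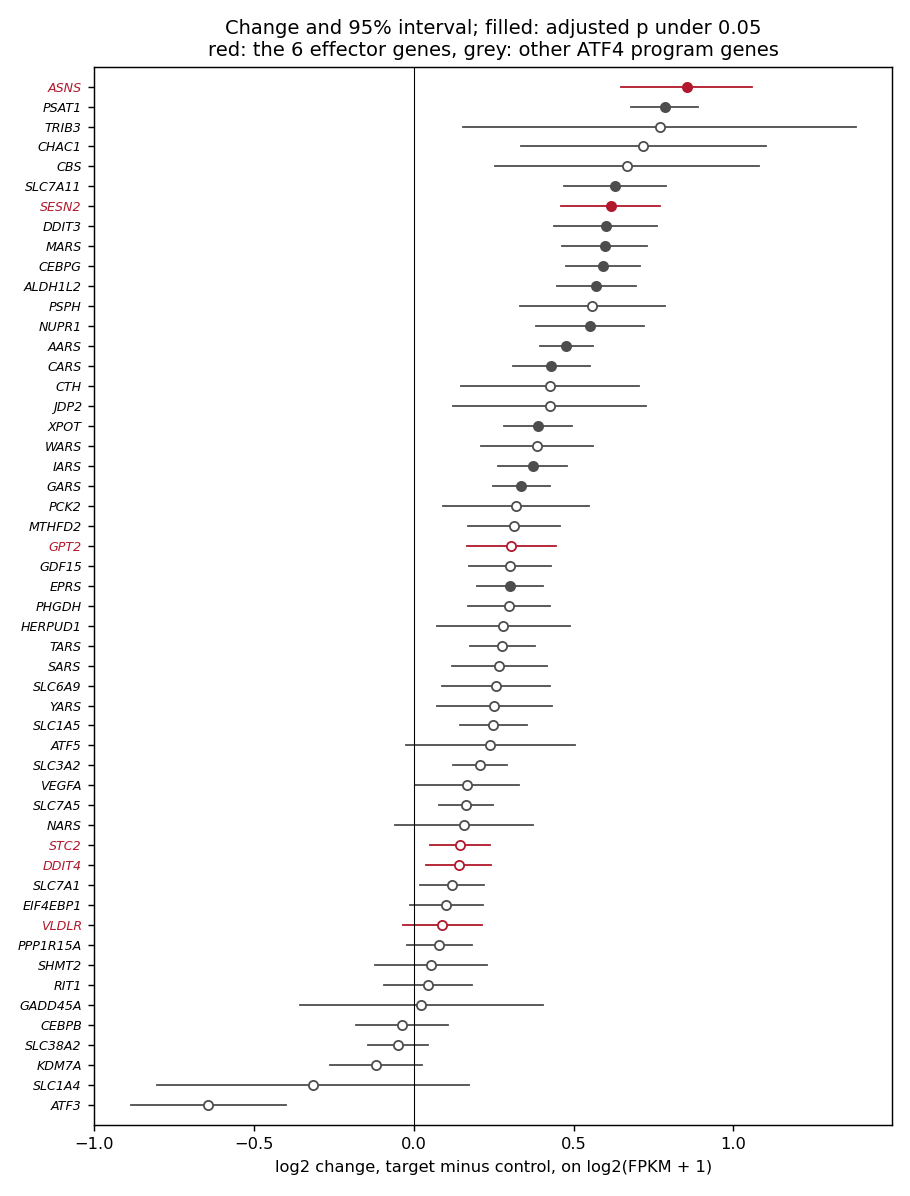
Log2 change with 95% interval for the 6 members (red) and 46 other ATF4 program genes (grey), ordered by size, with filled points for adjusted p under 0.05. ASNS (0.85) is at the top and ATF3 (-0.64) at the bottom, and the 4 members that did not pass lie at 0.31 or below.

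Around ASNS and GPT2, none of the 22 tested genes of asparagine, glutamine and alanine metabolism reported here passed in either direction (median log2 change 0.05). Over all tested genes 0.749% passed. At an unadjusted limma p under 0.05 there were 5 of the 22, beside 16.1% of all tested genes. In 5 of the 22 every target library was above every control library, beside 16.6% of all tested genes, and in 1 every target library was below. The 3 with the smallest p were among the 5 that were above. GOT1, the cytosolic aspartate aminotransferase, had means of 2.83 and 4.13 FPKM (limma adjusted p = 0.161), ASL, argininosuccinate lyase, 21.5 and 24.4 FPKM (0.233), and ASS1, argininosuccinate synthase, 331 and 360.1 FPKM (0.237). GLUL, glutamine synthetase, had overlapping groups with means of 4.51 and 4.43 FPKM.

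Around SESN2 and DDIT4, none of 35 tested genes of mTORC1 control passed in either direction (median log2 change 0.05), beside 0.749% of all tested genes. The 3 with the smallest p were TXNIP, a thioredoxin-binding protein, with means of 82.8 and 92.6 FPKM (adjusted p = 0.143), ITFG2, a KICSTOR subunit, with 0.966 and 1.27 FPKM (0.163), and MLST8, an mTOR complex subunit, with 5.33 and 6.50 FPKM (0.166). SESN1, the sestrin best known as a p53 target, had means of 3.25 and 3.62 FPKM (adjusted p = 0.321), and SESN3 and DDIT4L were not analysed here. Around STC2 and VLDLR, none of the 16 tested partner and related genes reported here passed (median 0.01), beside the same 0.749%. PAPPA, the protease bound by STC2, had means of 1.44 and 1.78 FPKM (adjusted p = 0.175), LRP1, a large relative of VLDLR, 115 and 99.1 FPKM (0.225), and SORL1, a sorting receptor of the same family, a log2 difference of 0.15 (0.279). At an unadjusted limma p under 0.05, which 16.1% of all tested genes reached, there were 4 of 35 mTORC1 genes and 4 of 16 partner genes.

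The lists of other pathways that act on members held no call, beside 0.749% of all tested genes called. At that share, lists this short can hold no call. In the list of eIF2 and its exchange factor, kinases, phosphatase and regulators, which also holds ATF4 itself, none of 19 genes passed (median log2 change 0.08). After ATF4, which had the smallest p, PPP1R15B, a phosphatase subunit, had means of 29.4 and 34.3 FPKM (adjusted p = 0.074) and EIF2S2, a subunit of eIF2, of 53.5 and 62.9 FPKM (0.161). None of 25 hypoxia genes passed, with a median of -0.01, and NDRG1 had means of 372 and 328 FPKM (adjusted p = 0.115), LOX of 201 and 222 FPKM (0.188) and VEGFA of 21.4 and 24.2 FPKM (0.303). For LOX a call was made under quantile normalization, with an adjusted p of 0.032. None of 19 tested p53 targets passed (median 0.05), with GDF15 at 25.2 and 31.2 FPKM (adjusted p = 0.085), TNFRSF10B at 30.4 and 34.3 FPKM (0.122) and XPC at 9.24 and 10.5 FPKM (0.233). None of 16 endoplasmic reticulum chaperone genes passed (median 0.08), with DNAJB9 at 7.90 and 9.92 FPKM (adjusted p = 0.094), EDEM1 at 13.0 and 15.0 FPKM (0.143) and HERPUD1 at 11.3 and 14.0 FPKM (0.224). At an unadjusted limma p under 0.05 there were 3 of 19 genes of the eIF2 list, ATF4 among them, 3 of 25 hypoxia genes, 6 of 19 p53 targets and 6 of 16 chaperone genes. Over all tested genes the share was 16.1%. VEGFA, GDF15 and HERPUD1 were also in the ATF4 program list. A missed threshold does not show that these genes were unchanged.

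**Figure D5:**
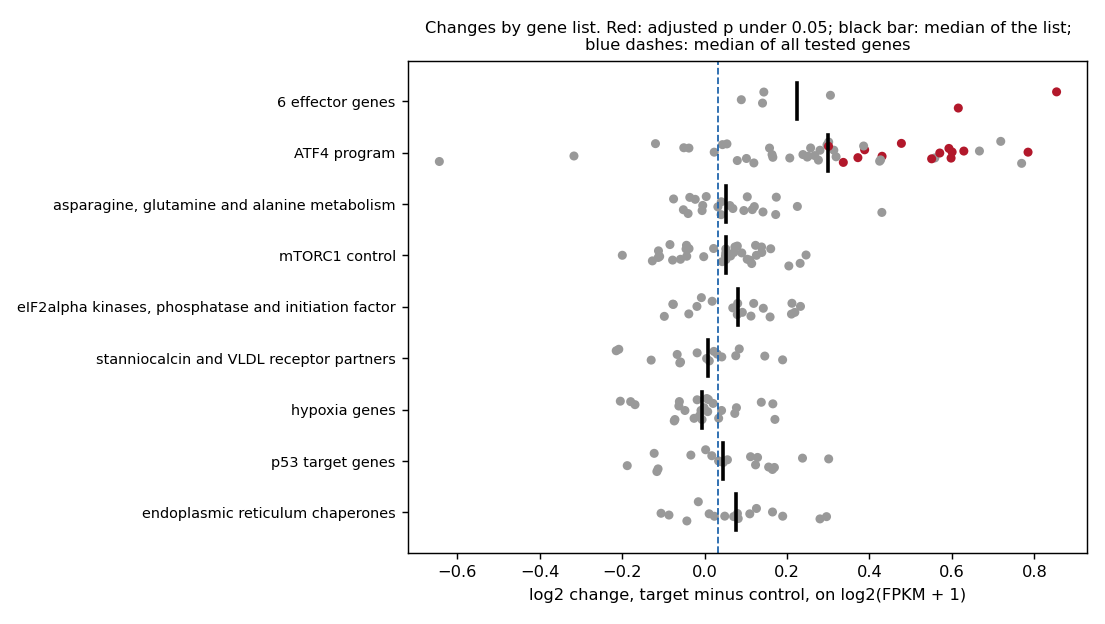
Log2 change (target minus control) of each gene in the 6 members and in each list, with red points for adjusted p under 0.05, black bars for the list medians and blue dashes for the median of all tested genes. The ATF4 program has a median of 0.30 and 13 red points, the 6 members have 2, and the other lists as reported here have none.

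The genes whose profiles over the 6 libraries were nearest to ASNS, by the root mean square difference of log2(FPKM + 1) after subtracting the control mean, were PSAT1 (0.087), FAM129B (0.127) and SEC61A1 (0.159), out of 6157 genes averaging 5 FPKM or more. FAM129B had means of 71.8 and 136 FPKM, and SEC61A1, a subunit of the protein channel of the endoplasmic reticulum, 67.8 and 136 FPKM. Nearest to SESN2 were ALDH1L2 (0.064), FAM129A (0.074) and CEBPG (0.081), and FAM129A had means of 4.69 and 7.43 FPKM (limma adjusted p = 0.013). FAM129B kept its call without any one library, whereas FAM129A (adjusted p 0.051 to 0.060) and SEC61A1 (0.072 to 0.101) lost theirs without control replicate 2 or 3 or target replicate 1, 2 or 3. Nearness follows mostly from the size of the change, since the control mean is removed, and the 6 libraries are shared by all genes.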

How the data were processed

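RNA-seq was measured in 3 control and 3 target shRNA libraries of MKN45. The authors deposited FPKM per gene and per transcript, already normalized to length and library; GRCh37 (hg19) is the build, per the submitters' processing notes. The aligner, the program that made FPKM, strandedness and read depth were not given in the sources used here. Low values of 77 single-transcript genes gave no whole-read steps (17.7% within 0.1 of a whole multiple of the smallest, 20% by chance), so no counts were recovered and depth stayed unknown.

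Values were transformed to log2(FPKM + 1), keeping features of at least 1 FPKM in at least 3 libraries, and fitted with limma 3.58.1 (trend) in R 4.3.3 over the whole table with Benjamini-Hochberg adjustment and a threshold of 0.05. Fold changes on this scale understate those of low genes. Shares and locus sums (listed transcripts added per gene locus) were computed with Python 3.11.15, pandas 2.3.3 and matplotlib 3.10.9. Transcript structures were matched by versioned identifier to GENCODE release 29 (GRCh38), and promoter windows are RefSeq's on GRCh38.p14; no coordinates were converted.

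In simulated data built on the gene table (10675 genes), limma recovered 23.6% of the genes given a 1.25-fold change, 58.4% of those given 1.5, 78.8% of those given 2 and 93.6% of those given 4. On the transcript table (20890 transcripts) it recovered 0.4%, 2.4%, 18.4% and 35.2%. Unchanged features made up 5.22% of the calls on genes and 11.9% of those on transcripts beside a nominal 5%.

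The members and lists were chosen with earlier results of these data known. Named were all members, their transcripts with a mean of at least 1 FPKM, each list gene past the threshold or else up to 3 of smallest p, ATF4 and partner genes, and the 3 nearest profiles of each member past the threshold. Some genes of the metabolism and partner lists are not reported here, and their lists' counts and medians are given without them. GLUL, SESN1, KRT18, EPCAM, GATA6, VIM, COL6A1 and LUM were named after their values were seen. Alternatives covered the pseudocount, the filter on low values, normalization, the limma options, a replicate block, locus sums and leaving out each library.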

Additional observations from a re-analysis of the deposited data

How the results depend on the processing

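The changes of ASNS, GPT2, SESN2, DDIT4 and STC2 kept their direction under every alternative run, and that of VLDLR under all but locus sums (-0.29). With 2 members past the threshold as reported, there was 1 at a mean of at least 5 FPKM (the filter removed SESN2 and GPT2), 3 with quantile normalization, 0 with locus sums, and between 0 and 2 with a library left out. ATF4 program calls (13) were 3 to 6 with a library left out. Calls over all genes (80) were 52 at a mean of at least 5 FPKM and 23 to 42 with a library left out, and over all transcripts (60) 39 and 15 with a pseudocount of 0.1 and 0.01, 18 at a mean of at least 5 FPKM, and 33 to 53 with a library left out. Fits with a library left out hold fewer samples and those at a mean of at least 5 FPKM fewer features. The cause of the differing counts was not tested for any of these alternatives, including the pseudocounts, quantile normalization and locus sums.

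ASNS-005 turned to -0.026 and -0.029 with a pseudocount of 0.1 and 0.01, -0.013 with quantile normalization, -0.022 with median rescaling, and ran from -0.57 to 0.38 with a library left out, as ASNS-017 ran from -0.47 to 0.75. With a library left out, the target minus control difference in share ran from 14.1 to 32.1 percentage points for ASNS-001. It ran from -36.9 to -14.1 for VLDLR-002 and from -0.27 to 0.69 for STC2-001.

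Whether replicate numbers pair the libraries was not settled. Deviations of same-numbered libraries correlated at -0.013, 0.019 and 0.066. The best matches were control replicate 1 with target replicate 2, control replicate 2 with target replicate 1, and control replicate 3 with target replicate 3. With 3 libraries per group, these values cannot decide whether a batch was shared. With the replicate block, 0 members (ASNS adjusted p = 0.108, SESN2 0.163), 1 ATF4 program gene, 10 genes and 0 transcripts were called. Unknown depth leaves counting error unmeasured. In the simulated data only 18.4% of 2-fold and 35.2% of 4-fold transcript changes were called.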
